A study of Mus musculus with 6 samples.

Results

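Integrins are the receptors that fasten a cell to its extracellular matrix, and focal adhesion adaptors are the cytoplasmic proteins that tie them to actin. The genes were taken by symbol: every integrin alpha subunit (18 genes), every beta subunit (8 genes) and 13 adaptors, so 39 of the 23183 gene symbols measured. RNA came from cerebral microvessels of 3 WT and 3 KO mice of the TEKCRIF1 strain, 1 library per mouse. WT mice carried TEK-cre with an intact Crif1 gene (Crif1+/+), KO mice carried TEK-cre with Crif1 flox/flox, and both were labelled C57BL/6, so the controls also expressed the recombinase. Their age at RNA sequencing is not given in the sources used here. Tek drives Cre in endothelial cells and is known to be active in blood-forming cells too. Microvessels were isolated whole, by dextran centrifugation and straining, and carry pericytes, astrocyte end-feet and any blood cells held in the lumen, so fewer cells of a type and less RNA per cell cannot be told apart in these data. Values are FPKM, fragment counts divided by transcript length and by the mapped fragments of the library, so levels can be set side by side between genes.

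An integrin is a pair of 1 alpha and 1 beta chain, and the pair sets the ligand. Beta 1 pairs with the widest range of alpha chains and gives vessels their receptors for laminin, collagen and fibronectin; alpha v with beta 3 or beta 5 binds vitronectin, and alpha 6 with beta 4 binds laminin. Leukocytes use beta 2 and beta 7 to hold on to the vessel wall. Talin and kindlin bind the beta tail and switch the receptor on, vinculin strengthens the link to actin, the complex of ILK, PINCH and parvin holds the adhesion together, and FAK, paxillin and p130Cas pass the signal on. In brain vessels this attachment anchors endothelial cells and pericytes to the shared basement membrane.

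The promoters of a beta subunit and a kindlin of the vessel wall are shown beside those of their leukocyte counterparts, because levels in these libraries were far apart within each pair. Each sequence is the 250 bases before the transcription start in RefSeq (GRCm38.p6), written along the gene's strand, with every CG in capitals. CG pairs mark the CpG island promoters of widely used genes.
Itgb1, chr8:128685404-128685653, plus strand: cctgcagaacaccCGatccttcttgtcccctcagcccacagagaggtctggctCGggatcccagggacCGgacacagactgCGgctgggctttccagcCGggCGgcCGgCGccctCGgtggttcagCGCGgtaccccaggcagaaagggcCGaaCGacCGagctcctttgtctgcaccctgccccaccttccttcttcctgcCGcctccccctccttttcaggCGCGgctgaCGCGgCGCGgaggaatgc
Itgb7, chr15:102231936-102232185, minus strand: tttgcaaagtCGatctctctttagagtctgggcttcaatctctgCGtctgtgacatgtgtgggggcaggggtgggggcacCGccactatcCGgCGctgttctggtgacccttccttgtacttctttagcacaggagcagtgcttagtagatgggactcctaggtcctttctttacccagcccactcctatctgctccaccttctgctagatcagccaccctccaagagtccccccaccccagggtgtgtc
Fermt2, chr14:45530066-45530315, minus strand: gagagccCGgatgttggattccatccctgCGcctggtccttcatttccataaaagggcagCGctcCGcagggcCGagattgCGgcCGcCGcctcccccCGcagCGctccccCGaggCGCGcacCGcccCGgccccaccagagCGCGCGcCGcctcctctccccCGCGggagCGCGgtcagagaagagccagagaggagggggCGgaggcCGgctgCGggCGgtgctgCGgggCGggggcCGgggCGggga
Fermt3, chr19:7019470-7019719, minus strand: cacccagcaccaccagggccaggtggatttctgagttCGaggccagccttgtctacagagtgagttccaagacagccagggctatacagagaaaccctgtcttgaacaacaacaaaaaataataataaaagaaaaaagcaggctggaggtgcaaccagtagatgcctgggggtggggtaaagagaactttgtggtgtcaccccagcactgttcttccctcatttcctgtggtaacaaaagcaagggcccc

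The Itgb1 window held 21 CG and the Itgb7 window 5, and the Fermt2 window held 31 against 1 in Fermt3. RefSeq windows were at hand for 27 of the 39 genes, and in the CG-richest window of each gene the median was 12 CG, beside 11 over the 17191 deposited symbols with a window. All 12 members with a window and a mean of 10 FPKM or more had at least 10 CG, where 82.4% of the 5253 genes at that level did. Counted over all 32851 windows, 37.8% had at least 10 CG and 92.1% had any. The 5 members best known from blood cells that had a window (Itga2b, Itgam, Itgax, Itgb7 and Fermt3) held 1 to 6 CG, but so did 3 others: Itga10, an integrin of cartilage (2), Fermt1, the epithelial kindlin (5), and Itga4 (6). This grouping by blood cells was made after the values were seen, and no test was run on it.

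Across the 6 libraries the depth estimated from the spacing of low FPKM values was 6400000 to 11700000 fragments, lowest in KO 2, and 3 fragments would give a 1 kb transcript 0.256 to 0.469 FPKM. That floor covers counting error only. Crif1 itself (Gadd45gip1) stood at 15.3 to 18.8 FPKM in WT and 7.54 to 10.8 FPKM in KO, with no overlap (log2 fold change -0.77, limma p = 0.00534, exact p = 0.1, adjusted p = 0.841). The endothelial markers were present throughout, with Pecam1 at 55.8 to 90.9 FPKM, and their sum over 10 genes overlapped between groups (815 to 1270 FPKM). Of the 10, 8 had values below 0, with a median log2 fold change of -0.16. Cdh5, the endothelial cadherin, was at 86.7, 92.4 and 91.3 FPKM in WT and 50.8, 42.5 and 38.1 FPKM in KO (log2 fold change -1.03, limma p = 0.000303, exact p = 0.1). Emcn also had no overlap but was higher in KO, at 26.5, 24.8 and 25.9 FPKM in WT and 46.7, 26.9 and 29.6 FPKM in KO (log2 fold change 0.37, limma p = 0.147, exact p = 0.1). By contrast with the endothelial sum, the sums of microglia and macrophage, astrocyte and fibroblast markers were lower in every KO library than in every WT library. No gene of the 14247 tested passed an adjusted p of 0.05 (0%, limma with Benjamini-Hochberg adjustment), and 838 had an unadjusted p under it.

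Of the 39 genes, 32 had a mean of at least 1 FPKM and were tested, and 15 of them were at 10 FPKM or more in all 6 libraries. Itgb1, the common beta chain, was the most abundant, at 165, 119 and 109 FPKM in WT and 129.9, 104 and 134 FPKM in KO. Ilk and Vcl followed it in WT mice at means of 76.5 and 51.1 FPKM. In the order of WT levels the ranges of 31 of 38 neighbouring pairs overlapped, so most positions in the order are not set by these data. The 7 pairs that stood apart set Itgb1 above Ilk and Ilk above Vcl, Ptk2 above Itga1, Itgav above Itga10, and Itga2 above Itgae at the bottom; the last 2, Itgae above Fermt1 and Fermt1 above Itgax, include values at or below the floor of 3 fragments and set no order.

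**Figure D1:**
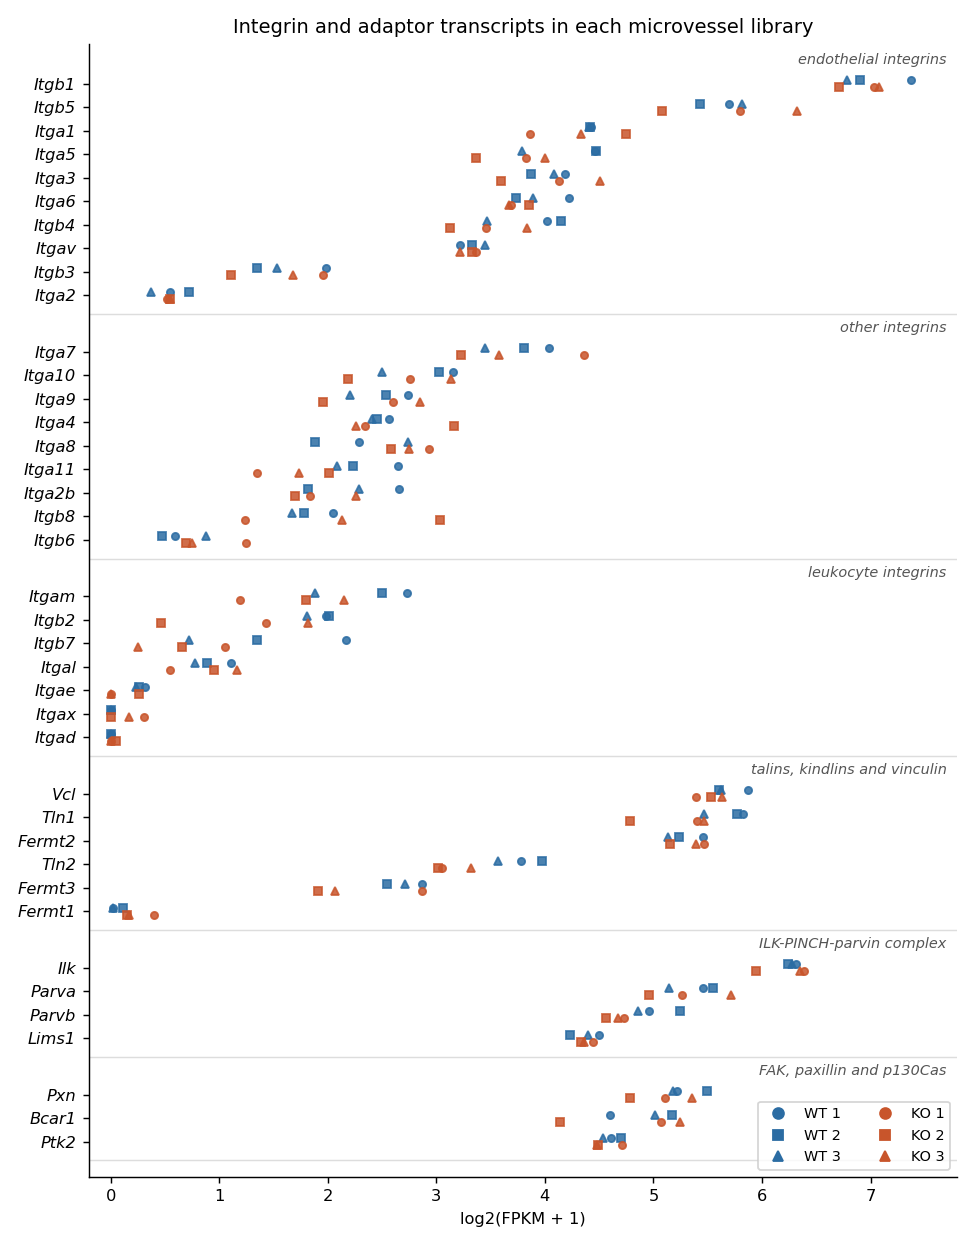
Level of each of the 39 genes as log2(FPKM + 1), with 1 point per library; blue, WT; orange, KO; circles, squares and triangles are libraries 1, 2 and 3. Genes are grouped by role and sorted by WT mean; Itgb1 lies at the top, the leukocyte integrins lie at or under 5.63 FPKM, and the orange square of KO 2 is often the leftmost point of a row.

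Few of these genes separated KO from WT mice. A log2 fold change below 0 means a lower level in KO. Of the 32 genes tested, 25 had a value below 0 and 7 above it, and their median was -0.10, beside -0.01 over all genes tested. Tln2 was the 1 gene with an unadjusted p under 0.05, and it was lower in KO; over all genes 5.88% had such a p, 3.11% lower and 2.77% higher, so the members' share was not above the background. None passed after adjustment, and their smallest adjusted p was 0.841. In 3 genes every KO mouse was below every WT mouse (Tln2, Parvb and Itga11), and in 0 tested genes was every KO mouse above; over all genes these shares were 5.7% and 5.37%. With 3 mice in each group the exact permutation p, given beside each limma p, is never smaller than 0.1.

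**Figure D2:**
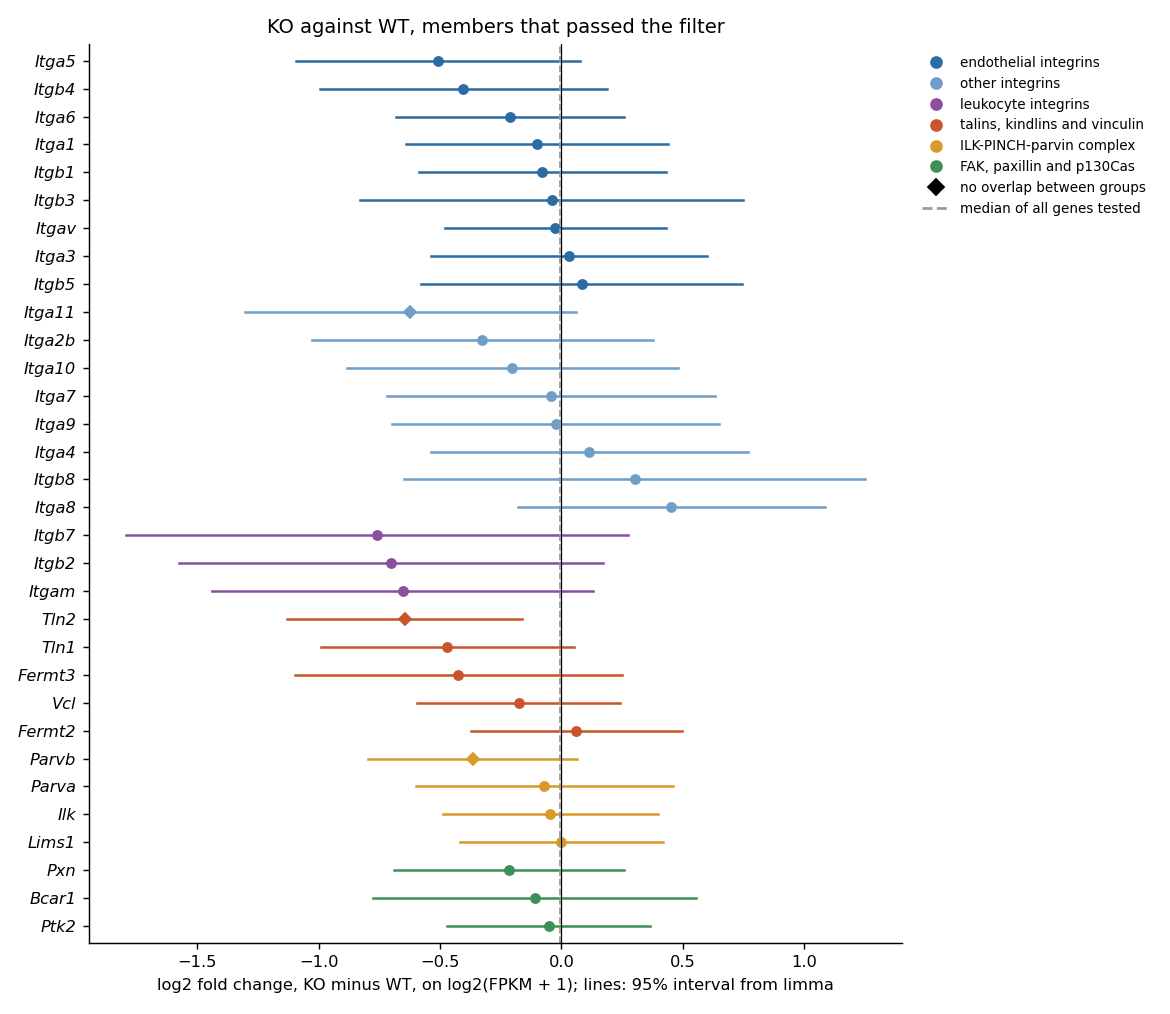
Log2 fold change, KO minus WT, on log2(FPKM + 1) for the 32 genes tested, coloured by role, with 95% intervals from limma; diamonds mark genes whose groups do not overlap and the dashed line is the median of all genes tested. The interval of Tln2 lies below 0 from -1.13 to -0.16, and the interval of every other gene spans 0.

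The endothelial integrins overlapped between the genotypes, with a summed level of 275 ± 38.5 FPKM in WT and 261 ± 45.2 FPKM in KO (SD, n = 3 each). Of the 10 genes 9 were tested, 7 had a value below 0 and 2 above it, none had a p under 0.05, and the median was -0.08. They made up 82.5% to 85.4% of all integrin FPKM in every library. Itgb1 alone was 57.0% to 67.5% of the beta chains, and Itgb5, the vitronectin receptor's beta chain, 20.9% to 33.6%. For Itgb1 the log2 fold change was -0.08 (95% interval -0.59 to 0.43, limma p = 0.74, exact p = 0.8). The ratio of Itgb1 to the sum of the 12 alpha chains that pair with it was 1.13 ± 0.137 in WT and 1.14 ± 0.0933 in KO (SD, n = 3 each), and it ranged from 1.04 to 1.28. Itgav and Itga6 also pair with other beta chains and were counted in full, so the ratio is not one of paired chains. Levels of transcripts are not numbers of receptors, and the pairing of the chains was not measured.

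**Figure D3:**
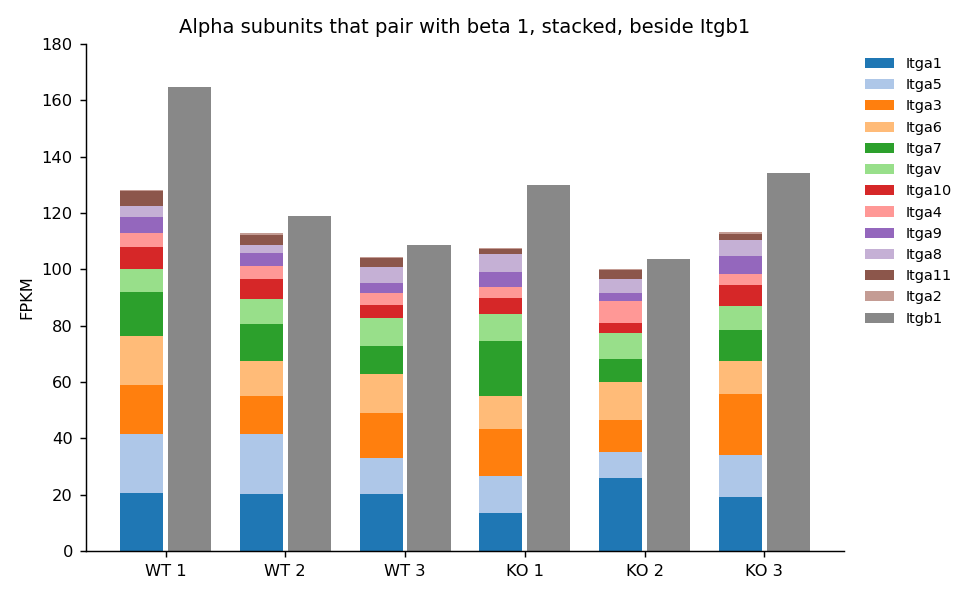
FPKM of the 12 alpha subunits that can pair with beta 1, stacked, beside Itgb1 (grey) in each of the 6 libraries. In every library the stack, 100.1 to 128 FPKM, is lower than Itgb1, and Itga1, Itga5, Itga3 and Itga6 form its lower part.

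Among the fibronectin and collagen receptors, Itga5, the alpha chain of the main fibronectin receptor, was at 21.1, 21.2 and 12.8 FPKM in WT and 13.2, 9.34 and 15.0 FPKM in KO. WT 3 lay among the KO mice, and KO 2 was lowest. Its log2 fold change was -0.51 (SE 0.26, 95% interval -1.09 to 0.08, limma p = 0.0816, exact p = 0.3), and it was -0.74 without WT 3 but -0.33 without KO 2. Itga1, which with beta 1 binds collagen and laminin, was at 20.5, 20.3 and 20.2 FPKM in WT and at 13.6, 25.9 and 19.1 FPKM in KO. The WT mice were close together, and the KO mice lay on both sides of them, with a log2 fold change of -0.10 (95% interval -0.64 to 0.44). Itga2, the platelet and epithelial collagen receptor, was at 0.299 to 0.646 FPKM and was not tested.

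Laminin receptors were at middle levels. Itga6 was at 17.6, 12.3 and 13.8 FPKM in WT and 11.9, 13.5 and 11.7 FPKM in KO (log2 fold change -0.21, limma p = 0.339, exact p = 0.2), and this was -0.08 without WT 1 and -0.32 without WT 2. Itgb4, its partner in hemidesmosome-type adhesion, was at 15.2, 16.7 and 10.1 FPKM in WT and 10.01, 7.75 and 13.2 FPKM in KO, with the groups overlapping through WT 3 and KO 3 (log2 fold change -0.40, limma p = 0.159, exact p = 0.2). It was -0.23 both without KO 2 and after the GC correction, and -0.13 after the length and GC correction. Itga3 was at 17.2, 13.6 and 15.9 FPKM in WT and 16.5, 11.1 and 21.7 FPKM in KO. Both the lowest and the highest of its values were in KO mice.

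The vitronectin receptors overlapped between the genotypes. Itgav, the alpha v chain, was at 8.29, 9.02 and 9.94 FPKM in WT and 9.33, 9.06 and 8.32 FPKM in KO. Its log2 fold change was -0.02 (95% interval -0.48 to 0.43). Itgb5 was at 51.0, 42.0 and 55.5 FPKM in WT and 54.6, 32.7 and 79.1 FPKM in KO. KO 2 was the lowest of the 6 libraries and KO 3 the highest, so its interval was wide (-0.58 to 0.75). Itgb3, shared by platelets and sprouting endothelium, was at 2.95, 1.54 and 1.89 FPKM in WT and 2.88, 1.15 and 2.20 FPKM in KO.

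The remaining integrins included several of mural cells and fibroblasts, and 8 of 9 were tested, with 5 below 0, 3 above it and a median of -0.03. Itga11, a fibroblast receptor for fibrillar collagen on chromosome 9, was at 5.26, 3.70 and 3.24 FPKM in WT and 1.55, 3.02 and 2.33 FPKM in KO, without overlap (log2 fold change -0.62, SE 0.31, limma p = 0.069, exact p = 0.1). The sum of the fibroblast markers beside it also stood lower, at 769 to 1092 FPKM in WT and 463 to 693 FPKM in KO over 4 genes of 4 (Col1a1, Dcn, Lum and Pdgfra), none at 0. Col1a1 carried most of that sum (718 FPKM on average in WT and 407 FPKM in KO), and the groups of the other 3 overlapped, with log2 fold changes of -0.18, -0.05 and -0.32. Their part in the Itga11 result was not tested. Itga7, the laminin receptor of muscle, was at 15.4, 13.0 and 9.92 FPKM in WT and 19.5, 8.35 and 10.9 FPKM in KO. Its highest values were in KO 1 and WT 1, the libraries in which the 4 smooth muscle markers were also highest (754 and 561 FPKM summed, beside 225 to 381 FPKM in the others). The order did not hold beyond them, as WT 2 had the lowest marker sum (225 FPKM) but more Itga7 than KO 3 (381 FPKM). The part of smooth muscle in the Itga7 values was not tested.

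Itga8, a mural cell receptor for RGD ligands, was at 3.89, 2.68 and 5.67 FPKM in WT and 6.63, 4.97 and 5.74 FPKM in KO. It had the highest positive value of the group, 0.45, with an interval from -0.18 to 1.09 (limma p = 0.142, exact p = 0.2), and 0.24 without WT 2. Itgb8, through which alpha v activates TGF-beta, was at 3.14, 2.44 and 2.18 FPKM in WT and 1.35, 7.21 and 3.39 FPKM in KO. KO 1 was the lowest and KO 2 the highest of the 6 mice, and the log2 fold change of 0.30 became -0.15 without KO 2. Itga4, which binds VCAM1 and fibronectin, was likewise highest in KO 2, at 7.95 FPKM, while the other libraries lay between 3.80 and 4.92 FPKM. Itga9 was at 2.88 to 6.20 FPKM and Itga10 at 3.55 to 7.92 FPKM, both lowest in KO 2. Itga2b, the platelet chain, was at 5.32, 2.53 and 3.88 FPKM in WT and 2.56, 2.25 and 3.78 FPKM in KO (log2 fold change -0.33, limma p = 0.326, exact p = 0.3), and from -0.54 to -0.12 on leaving out a library. Itgb6, an epithelial chain, was under the filter at 0.385 to 1.38 FPKM.

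Leukocyte integrins were scarce. Together the 7 genes had 13.5, 10.3 and 6.71 FPKM in WT and 4.75, 4.62 and 7.51 FPKM in KO, with KO 3 above WT 3. As a share of all integrin FPKM they took 3.50%, 3.35% and 2.28% in WT and 1.51%, 1.78% and 2.10% in KO. On this scale every KO mouse was below every WT mouse, although KO 3 and WT 3 were close. This separation depends on the list of 7 genes. Itga4, the alpha chain that binds VCAM1, was counted with the other integrins (log2 fold change 0.11, 7.95 FPKM in KO 2). With Itga4 counted in, KO 2 would not lie below the WT mice. Of the 7 genes, 3 passed the filter, all with values below 0 and a median of -0.70, and none of the 3 had a p under 0.05. Itgb7 passed the filter through its WT level (1.89 FPKM on average, beside 0.614 FPKM in KO), so this median is no account of all 7 genes, and with no filter it was -0.18.

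Itgam, the alpha M chain of microglia, macrophages and neutrophils, was at 5.63, 4.66 and 2.68 FPKM in WT and 1.28, 2.49 and 3.44 FPKM in KO. WT 3 lay within the KO range, and the log2 fold change was -0.65 (SE 0.35, 95% interval -1.44 to 0.13, limma p = 0.0924, exact p = 0.2), and it was -0.39 without KO 1, -0.90 without WT 3 and -0.87 without KO 3. Itgb2, the beta chain of all 4 CD11 integrins, was at 2.96, 3.04 and 2.50 FPKM in WT and 1.69, 0.376 and 2.52 FPKM in KO. The WT mice were close together and KO 2 lay far below the rest, at an estimated 7.15 fragments, and the log2 fold change was -0.70 (SE 0.39, limma p = 0.104, exact p = 0.2) and it was -0.31 without KO 2 and -0.99 without KO 3. Itgb7, the beta chain of gut-homing lymphocytes, was at 3.48, 1.55 and 0.648 FPKM in WT and 1.07, 0.578 and 0.189 FPKM in KO (log2 fold change -0.76, SE 0.46, limma p = 0.133, exact p = 0.2). WT 1 alone held over 3 FPKM, and without it the log2 fold change was -0.38, while without WT 3 it was -1.11. An unadjusted limma p under 0.05 was reached by Itgam without WT 3 or KO 3, by Itgb2 without KO 3 and by Itgb7 without WT 3. In each case the library left out was the one of its genotype nearest the other genotype, so these p-values add no evidence of a difference. Over all 14247 genes 698 had such a p without WT 3 and 993 without KO 3.

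The other 4 were under the filter. Itgal, the alpha chain of LFA-1, was at 0.458 to 1.24 FPKM with both ends in KO mice. Itgae was at 0.176 to 0.245 FPKM in WT and listed at 0 in KO 1 and KO 3. Itgax was listed at 0 in every WT library and in KO 2, and at 0.241 and 0.122 FPKM in KO 1 and KO 3. Itgad was listed at 0 in 5 libraries, and the 0.038 FPKM in KO 2 corresponded to an estimated 0.998 fragments. For Itgae, Itgax and Itgad no order between genotypes can be read at these depths. Itgam, Itgax and Itgad are neighbours on chromosome 7, with Itgal farther off on the same chromosome, and how reads shared by similar genes were counted is not given in the sources used here.

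None of the tested markers of microglia and macrophages, lymphocytes, neutrophils and platelets had an unadjusted p under 0.05. Over the 7 microglia and macrophage markers, none at 0, the sum was 195, 174 and 171 FPKM in WT and 157, 151 and 147 FPKM in KO, with 6 of 7 below 0 (P2ry12 at 0.52 was the exception) and a median log2 fold change of -0.22. The part of the microglia and macrophage markers in the integrin values was not tested. The lymphocyte and neutrophil markers, 9 of 10 of them listed, overlapped widely (7.42 to 30.1 FPKM summed, highest in KO 1), with Cd8a at 0 in all libraries, Cd3e at 0 in 5, Ms4a1 at 0 in every WT library, and S100a8 at 0 in WT 1. The platelet markers summed to 29.8 to 44.5 FPKM in WT and 23.5 to 34.8 FPKM in KO over 5 genes, with Pf4 the highest and Gp6 at 0 in 4 libraries. Of the 3 tested, Pf4 had a log2 fold change of -0.49, Ppbp 0.64 and Gp1ba 0.34, with a median of 0.34. The part of these cells was not tested either.

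**Figure D4:**
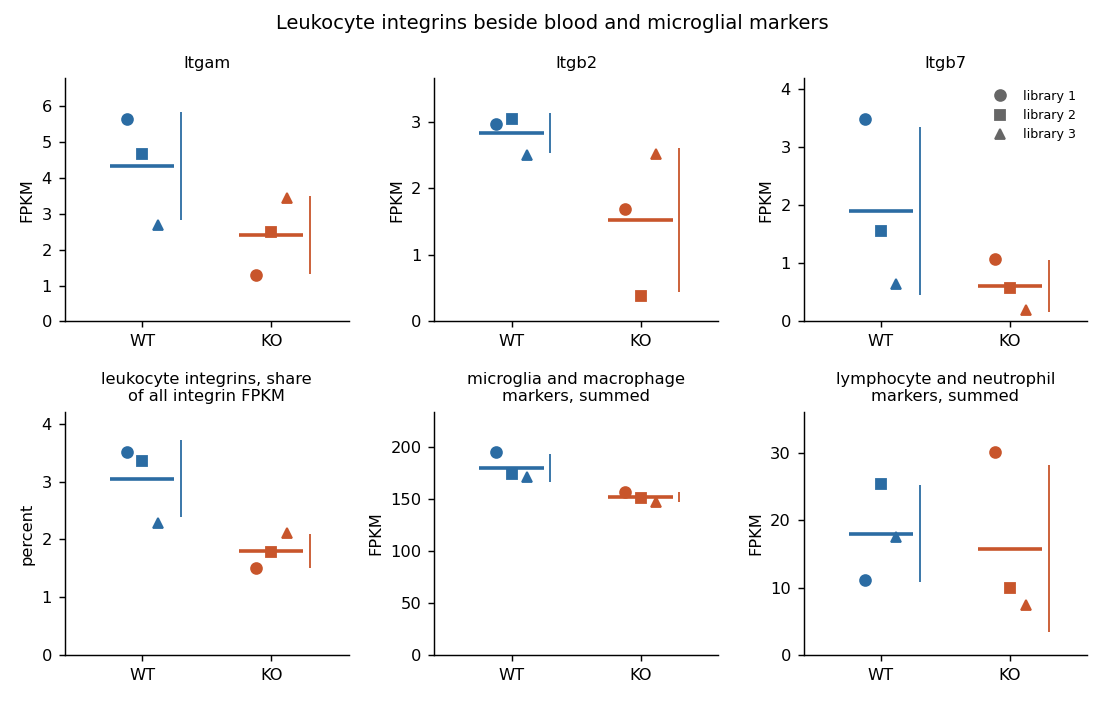
Level of Itgam, Itgb2 and Itgb7 in FPKM (upper row), and the leukocyte integrins as a percent of all integrin FPKM, the summed microglia and macrophage markers and the summed lymphocyte and neutrophil markers (lower row), in WT (blue) and KO (orange); symbols are libraries, horizontal lines means, and vertical lines mean ± SD with n = 3. The share of the listed leukocyte integrins, which leave out Itga4, and the microglial sum do not overlap between genotypes, and the other 4 panels do.

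Leukocyte integrins bind receptors on endothelial and epithelial cells, and 5 of the 6 counter-receptors listed were tested. Cdh1, the epithelial cadherin bound by Itgae, was lower in KO (39.2, 44.95 and 32.1 against 15.9, 23.6 and 31.5 FPKM; log2 fold change -0.73, limma p = 0.0195, exact p = 0.1). F11r, the junction molecule JAM-A bound by LFA-1, was higher (29.3, 27.5 and 29.7 against 50.6, 30.1 and 48.8 FPKM; log2 fold change 0.53, limma p = 0.0446, exact p = 0.1). For both the nearest WT and KO mice differed by less than 1 FPKM, and neither passed after adjustment (adjusted p = 0.841). The log2 fold change of Icam1 was -0.58 (limma p = 0.054, exact p = 0.2) and that of Vcam1 was 0.42 (limma p = 0.0955, exact p = 0.2), both with overlapping groups.

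Of the adaptors, 12 of 13 were tested, 10 had values below 0 and 2 above it, and the median was -0.14. The talins, which link the beta tail to actin, had the lowest values. Tln2, on chromosome 9 (67217087 to 67559703, minus strand, GRCm38), was at 12.7, 14.7 and 10.9 FPKM in WT and 7.32, 7.07 and 8.99 FPKM in KO, so each KO mouse was lower than each WT mouse. The log2 fold change was -0.65 (SE 0.22, limma p = 0.0141, adjusted p = 0.841, exact p = 0.1), which is 0.639-fold on the scale of FPKM + 1. Without WT 2 the value was -0.54 and no longer passed an unadjusted threshold of 0.05 in limma, and after a GC correction of each library it was -0.59 and passed it. Tln2 is the talin of neurons and muscle as well as of vessels, and the summed neuron markers ranged from 152 to 277 FPKM in WT and from 101 to 246 FPKM in KO. All 4 neuron markers were below 0, Slc17a7 the furthest at -0.86 (limma p = 0.0184, exact p = 0.2). All 4 smooth muscle markers were above 0, with a median log2 fold change of 0.41. The part of neurons and of smooth muscle in the Tln2 result was not tested. Tln1, the main endothelial and blood cell talin, was at 55.7, 53.4 and 43.2 FPKM in WT and 41.2, 26.5 and 43.3 FPKM in KO. KO 3 was just above WT 3 and KO 2 was lowest, with a log2 fold change of -0.47 (SE 0.23, limma p = 0.0724, exact p = 0.2) that was -0.25 without KO 2 and also after the length and GC correction. The ratio of Tln1 to Tln2 was 3.63 to 4.38 in WT and 3.75 to 5.64 in KO.

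The kindlins work beside talin. Fermt2, the kindlin of adherent cells, was at 43.0, 36.7 and 34.01 FPKM in WT and 43.2, 34.7 and 40.9 FPKM in KO, a log2 fold change of 0.06 (95% interval -0.37 to 0.49). Fermt3, the kindlin of blood cells, was at 6.31, 4.83 and 5.54 FPKM in WT and 6.29, 2.75 and 3.20 FPKM in KO. KO 1 was level with WT 1 and the other KO mice were lower than every WT mouse (log2 fold change -0.43, limma p = 0.19, exact p = 0.3, and -0.72 without KO 1 but -0.24 without KO 2). The ratio of Fermt2 to Fermt3 was 6.14 to 7.60 in WT and 6.87, 12.6 and 12.8 in KO. Fermt1, the epithelial kindlin, did not exceed 0.318 FPKM, with an estimated 0.944 to 13.2 fragments per library; its KO values were above its WT values, at levels where 4 of the 6 libraries had fewer than 4 estimated fragments. Vcl was at 57.4, 47.6 and 48.2 FPKM in WT and 41.1, 45.4 and 48.6 FPKM in KO (log2 fold change -0.18, limma p = 0.371, exact p = 0.3), and this was -0.09 without WT 1.

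In the ILK, PINCH and parvin complex, 3 of the 4 genes had overlapping groups. Ilk, the scaffold kinase-like protein, was at 78.6, 74.6 and 76.3 FPKM in WT and 82.9, 60.7 and 80.6 FPKM in KO, with KO 2 alone under 70 FPKM. Lims1, which encodes PINCH1, was at 21.6, 17.8 and 20.04 FPKM in WT and 20.8, 19.1 and 19.5 FPKM in KO, and its log2 fold change was 0.00 (95% interval -0.42 to 0.42). Parva was at 42.9, 45.9 and 34.2 FPKM in WT and 37.3, 30.1 and 51.6 FPKM in KO. Parvb, the second parvin, on chromosome 15, was at 30.1, 36.8 and 28.0 FPKM in WT and 25.4, 22.6 and 24.6 FPKM in KO, without overlap. Its log2 fold change was -0.37 (SE 0.19, limma p = 0.0882, exact p = 0.1), and it was -0.26 after the GC correction and -0.22 after the length and GC correction. The ratio of Parva to Parvb was 1.30 ± 0.111 in WT and 1.63 ± 0.411 in KO (SD, n = 3 each).

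All 3 signalling adaptors overlapped between the genotypes. Ptk2, which encodes FAK, was at 23.3, 25.1 and 22.2 FPKM in WT and 25.2, 21.5 and 21.3 FPKM in KO (log2 fold change -0.05, 95% interval -0.47 to 0.36). Pxn was at 36.3, 44.1 and 35.2 FPKM in WT and 33.4, 26.6 and 39.8 FPKM in KO (log2 fold change -0.22, or -0.07 without KO 2). Bcar1, which encodes p130Cas, was at 23.2, 35.1 and 31.3 FPKM in WT and 32.6, 16.7 and 36.8 FPKM in KO, and WT 1 and KO 2 lay below the other 4 mice.

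Exons of Tln1, Vcl, Ilk and Fermt3 overlap genes on the other strand (Creb3, Ap3m1, Taf10 with Rrp8, and Trpt1), by up to 2090 shared bases for Vcl and Ap3m1. The library kit marks strand, but whether the counting used it is not given in the sources used here, so the values of these 4 genes may hold reads of a neighbour. Deposited genes that overlap Itga4, Itga7, Itga8 and Itgad on the other strand had at most 1.41 FPKM on average. Itga1, Itgam, Itga10 and Itgad share 451, 210, 204 and 224 exon bases with annotated genes on their own strand (Gm49395, Gm49368, Gm42957 and Gm17831), not analysed here, and strand cannot separate those reads.

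KO 2 was the lowest of the 6 libraries for 19 of the 32 genes tested (59.4%), beside 25.03% over all genes. It was the highest for 3 genes, Itga1, Itga4 and Itgb8, whose longest transcripts have the GC contents 42.8%, 41.1% and 40.4%, among the lowest of the group. Among the 19 members with a GC content of 50% or more, the median of KO 2 lay -0.52 from the mean of the 6 libraries on the log2 scale, and among the 13 below 50% it lay -0.05 from it. WT 1 lay on the other side, at 0.34 and 0.11. Over all genes tested the medians of KO 2 were -0.13 at 50% or more and 0.08 below 50%.

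**Figure D5:**
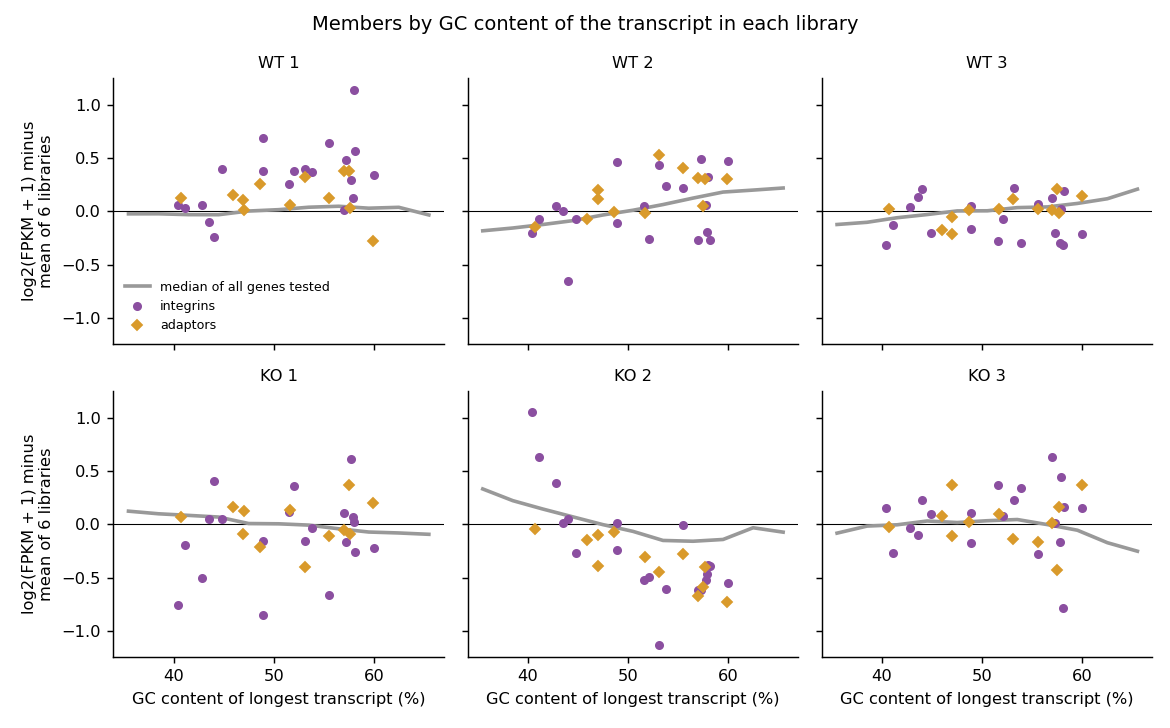
GC content of the longest transcript of each tested member in percent against its log2(FPKM + 1) minus the mean of the 6 libraries, 1 panel per library; purple circles, integrins; yellow diamonds, adaptors; grey line, median of all genes tested in GC bins. In KO 2 the members fall from above 0 at about 40% GC to below 0 above 50% GC, and the grey line falls in the same direction by less.

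The difference between genotypes followed the same split. The 19 genes with 50% GC or more had a median log2 fold change of -0.33, and 17 of them were below 0, beside -0.11 over all genes of that class. The 13 genes under 50% had -0.05 with 8 below 0, beside 0.09 over all genes of that class. After each library was corrected for GC content the medians of the members were -0.17 (13 of 19 below 0) and -0.14 (11 of 13 below 0), beside -0.02 and -0.01 over all genes. Without KO 2 the median of the adaptors was -0.04 and that of the endothelial integrins -0.04, and without KO 3 they were -0.30 and -0.18. Without KO 2 the genes with an unadjusted limma p under 0.05 were Tln2 (-0.59) and Itga11 (-0.78), 2 of 32, where 1871 of all 14247 genes had one, so the members were called no more often than the background.

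Integrin ligands of the vessel wall, the laminins, collagen IV, nidogens, fibronectin and others that these receptors bind, mostly had values below 0. Of 18 genes, all tested, 16 were below 0 and 2 above it, with a median of -0.37, and in 9 every KO mouse was below every WT mouse, beside 5.7% over all genes. Fn1, the fibronectin bound by alpha 5 beta 1, was at 343, 330.0 and 223 FPKM in WT and 139, 172 and 214 FPKM in KO (log2 fold change -0.76, limma p = 0.0143, exact p = 0.1). Lamc3, a laminin gamma chain, was at 32.2, 29.9 and 18.9 FPKM in WT and 15.6, 13.2 and 15.6 FPKM in KO (log2 fold change -0.80, limma p = 0.0071, exact p = 0.1). For Lama2, the alpha 2 chain of laminin, the log2 fold change was -0.52 (limma p = 0.0299, exact p = 0.1) and for Lamc1, the common gamma chain, it was -0.44 (limma p = 0.0437, exact p = 0.1), both without overlap. None passed after adjustment (adjusted p = 0.841 for each of the 4). Of markers of cells that also make these ligands, 1 of 4 fibroblast markers and 2 of 5 astrocyte markers were lower in every KO than in every WT library; both sums were, with astrocyte markers at 526 to 592 FPKM in WT and 393 to 427 FPKM in KO (5 genes, none at 0). The summed pericyte markers, of cells that make them as well, overlapped (216 to 305 FPKM in WT and 235 to 341 FPKM in KO). Rgs5, with a log2 fold change of 0.24, carried most of that sum (157 FPKM on average in WT and 188 FPKM in KO). The other 5 of 6 were below 0, and the median log2 fold change was -0.29. Pdgfrb, Cspg4 (limma p = 0.0338, exact p = 0.1) and Anpep (limma p = 0.048, exact p = 0.1) were lower in every KO mouse than in every WT mouse. The part of these cells was not tested. The 9 of 18 ligands without overlap and the 3 of 32 receptors and adaptors are counts in the same 6 libraries, and the difference between these shares was not tested.

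Of 42 other genes of integrin signalling, such as Src, zyxin, tensins, filamins and Rap1, 40 were tested, 24 were below 0 and 16 above it, and the median was -0.10. Rap1a, a small GTPase that brings talin to integrins, was the 1 gene of the 40 (2.5%, beside 5.88% over all genes) with an unadjusted p under 0.05, at 23.0, 25.2 and 24.8 FPKM in WT and 37.4, 35.0 and 29.2 FPKM in KO (log2 fold change 0.45, limma p = 0.0377, exact p = 0.1, adjusted p = 0.841). Each KO mouse was above each WT mouse. Its near-identical relative Rap1b was at 69.4 to 87.8 FPKM with overlapping groups and a log2 fold change of -0.05, and reads that fit both genes could have been split between them in the counting.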

How the data were processed

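The authors trimmed reads with FASTX_Trimmer and BBMap, checked them with FastQC, mapped them to mm10 with TopHat (processing notes of the submitters) and deposited FPKM values per gene symbol; the tool that gave FPKM, its annotation and its use of strand are not given in the sources used here. Members were found by symbol, and members and gene lists were chosen with earlier results of these data known. Log2(FPKM + 1) values were compared for the 14247 genes that averaged 1 FPKM or more, as KO minus WT, with limma 3.58.1 (R 4.3.3), with trended variance, no further scaling and Benjamini-Hochberg adjustment over all of them. Single genes also had an exact two-sided permutation test. Every member was named; of the ligand, signalling and counter-receptor lists, genes with an unadjusted p under 0.05 were named. Icam1, Vcam1, Rap1b and the single marker genes were chosen after their values were seen. Length, GC content and positions came from GENCODE M21 (GRCm38). Depth was estimated from the steps between FPKM values under 0.3. With 200 genes shifted by 1 on the log2 scale in simulated data on 14247 genes, 174 had a p under 0.05 and 0 passed after adjustment; with a shift of 2, 152 passed. Alternatives were no filter, a filter at 5 FPKM, a pseudocount of 0.1, median, quantile and trimmed-mean scaling, a replicate block, untrended variance, GC and length corrections (loess, span 0.3), centring on markers, and leaving out each library. 1 gene that was examined is not reported here; the summed lymphocyte and neutrophil markers include it.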

Additional observations from a re-analysis of the deposited data

How the results depend on the processing

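No member passed an adjusted p of 0.05 under any alternative (0 under each; 0 to 4 with an unadjusted p under 0.05). In data simulated at this size, shifts of 1 on the log2 scale were not called after adjustment and most shifts of 2 were. The count at an unadjusted p under 0.05 was 1, and 2 with quantile normalization or without trended variance (838 of all genes, and 928 and 795); leaving out a library gave 0 (WT 2; 450 of all genes) to 4 (WT 3, 698 of all genes, or KO 3, 993). The replicate block gave 1 member and 871 of all genes with a p under 0.05, and 0 adjusted; same-numbered libraries correlated at 0.037, 0.027 and 0.002, so the numbers were not taken to pair mice. The median of the leukocyte integrins was -0.18 with no filter and -1.16 with a pseudocount of 0.1 (main value -0.70). Centred on microglia and macrophage markers it was -0.51, and that centring moved the median of all genes to 0.19. The median of the endothelial integrins was 0.14 when centred on endothelial markers, which moved the median of all genes to 0.21. That of the endothelial integrins was -0.17 after the GC correction and -0.13 after the length and GC correction (main value -0.08). Under the GC correction the sign reversed for Itgb3 (0.0016), Itga4 (-0.040), Itga7 (0.11), Itga9 (0.0075), Fermt2 (-0.012), Lims1 (-0.16) and Bcar1 (0.066), and under the length and GC correction for Itgb3 (0.077), Itga7 (0.15), Itga9 (0.090), Fermt2 (-0.0068), Lims1 (-0.14) and Bcar1 (0.10); all lay within 0.16 of 0 and the cause was not tested. Of 501 single-gene values, 41 changed sign, 28 of them on leaving out a library, and 16 members never did. On leaving out a library the log2 fold change crossed 0 for Itga1 (from -0.32 to 0.13), Itga3 (from -0.18 to 0.27), Itgav (from -0.082 to 0.036), Itgb1 (from -0.20 to 0.099), Itgb3 (from -0.23 to 0.20), Itgb5 (from -0.21 to 0.41), Itga4 (from -0.17 to 0.28), Itga7 (from -0.36 to 0.20), Itga9 (from -0.21 to 0.23), Itga10 (from -0.42 to 0.051), Itgb8 (from -0.15 to 0.75), Fermt2 (from -0.011 to 0.15), Ilk (from -0.13 to 0.095), Lims1 (from -0.070 to 0.062), Parva (from -0.27 to 0.11) and Bcar1 (from -0.32 to 0.23).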
